A study of Homo sapiens with 24 samples.

Results

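TM4SF1, TMEM50B, NUCB2 and DEFB1 are 4 of the 18915 genes in the count matrix, and all 4 were among the 12685 genes with enough reads to be tested. They were chosen by name from earlier results of the same data, because their mRNA was much higher when ISRIB was added to bortezomib than with bortezomib alone and because none is a classical chaperone of the unfolded protein response (UPR). The choice carried no numerical limit, so the difference between these 2 treatments is described below without a test. HepG2 cells, a hepatocellular carcinoma line, were treated for 10 h in 6 groups of 4 replicates. The groups were the DMSO vehicle, 50 nM ISRIB, 20 µM nelfinavir, 50 nM bortezomib, bortezomib with nelfinavir, and bortezomib with ISRIB, each drug at the same dose alone and in combination. All comparisons are within this one line and at this one time point.

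Bortezomib inhibits the proteasome, and cells that cannot degrade misfolded proteins activate stress pathways. One of them, the integrated stress response, phosphorylates the translation factor eIF2α, which lowers general protein synthesis and favors the transcription factor ATF4. ISRIB acts on eIF2B and makes translation insensitive to eIF2α phosphorylation, whereas nelfinavir, an HIV protease inhibitor, activates this response. The UPR of the endoplasmic reticulum (ER) has other arms, led by XBP1 and ATF6, which induce ER chaperones and degradation factors. The 4 genes encode proteins made at the ER. TM4SF1 is a plasma membrane protein of the L6 family, known from tumor and endothelial cells. TMEM50B is a small membrane protein of the ER and Golgi. NUCB2, or nucleobindin 2, is an EF-hand calcium-binding protein and the precursor of nesfatin-1. DEFB1 is a secreted antimicrobial defensin of epithelia.

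The libraries were 3′ mRNA libraries with 5154533 to 6943164 counted reads each. Mitochondrial mRNA took 18.02–23.23% of counts in the DMSO, ISRIB and nelfinavir libraries, 24.94–29.64% with bortezomib and nelfinavir, 32.77–35.49% with bortezomib, and 32.61–40.18% with bortezomib and ISRIB, the highest share being in replicate 4 of that group. The part of this shift in the results was not tested. Levels are CPM, counts per 1000000 counts of a library, after TMM scaling, which sets the median gene of the libraries near equality. Scaling by library totals instead moved the median gene by −0.539 to −0.498 on the log2 scale in the comparisons of a bortezomib group with a group without it, against −0.062 for bortezomib with ISRIB against bortezomib. In bulk RNA, fewer cells of a type and less RNA per cell cannot be told apart. All 8 hepatocyte markers examined were present, with a summed level of 13000–14500 CPM with DMSO, 10100–10700 with bortezomib, 9350–10900 with bortezomib and ISRIB and 6680–8600 with bortezomib and nelfinavir, and PTPRC, CD3E, PECAM1, VWF and CDH5, which define blood and endothelial cells, had no counts in any library.

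In the rule comparison, bortezomib with ISRIB against bortezomib, the 4 genes were 2.21 to 3.91 times as high with ISRIB, and none of them had overlapping groups. Over all tested genes, 6.5% were higher without overlap and 6.91% were called higher at an adjusted p below 0.05, figures given as background since the genes were chosen on this comparison. By size of the increase DEFB1 stood 168th, TMEM50B 221st, TM4SF1 387th and NUCB2 470th of the 12685 genes. The genes parted when nelfinavir was the added drug. DEFB1, NUCB2 and TMEM50B were higher with bortezomib and nelfinavir than with bortezomib, and TM4SF1 was lower. TM4SF1 was therefore highest of its 6 groups in bortezomib with ISRIB and lowest in bortezomib with nelfinavir.

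**Figure D1:**
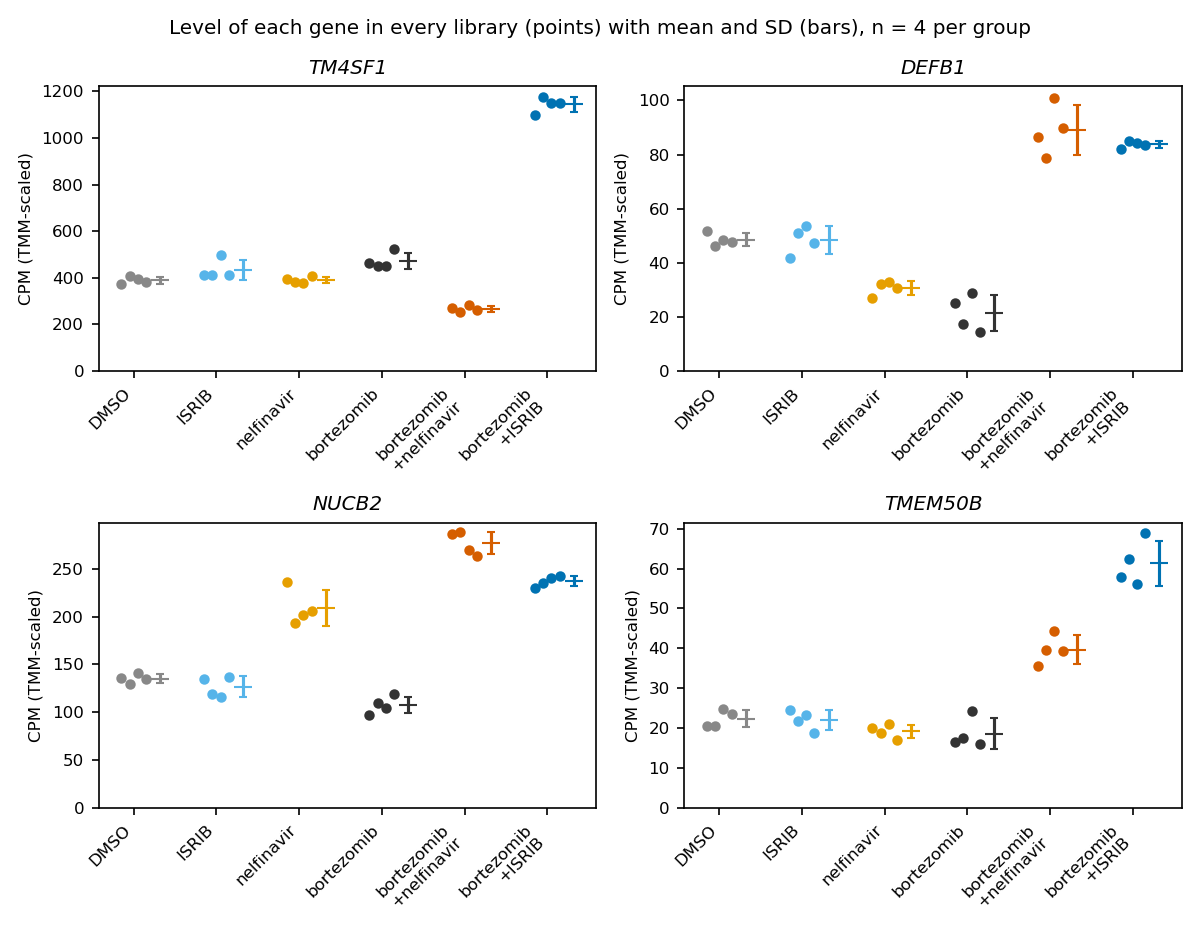
CPM after TMM scaling of TM4SF1, DEFB1, NUCB2 and TMEM50B in each of the 24 libraries, with the mean and SD of each group of 4. TM4SF1 sits between 1098 and 1176 CPM with bortezomib and ISRIB and between 254.1 and 285.1 CPM with bortezomib and nelfinavir, while the other 3 genes are high in both combinations.

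TM4SF1 (ENSG00000169908; GRCh37 chromosome 3, 149086809 to 149095479, minus strand) had the most reads of the 4 genes, 72823 over the 24 libraries. Its level in replicates 1 to 4 was 373.4, 406.5, 396.8 and 381.4 CPM with DMSO, and 396.2, 380.2, 377 and 407.1 CPM with nelfinavir. With ISRIB alone it was 412.6, 410.7, 499.1 and 411.5 CPM. The nelfinavir libraries thus overlapped the controls, and the ISRIB libraries lay above the controls with 1 of them apart. With bortezomib the gene measured 461.5, 449.7, 451.4 and 525.4 CPM. With bortezomib and nelfinavir it measured 270.1, 254.1, 285.1 and 262.6 CPM, below every other library. With bortezomib and ISRIB it measured 1098, 1176, 1152 and 1150 CPM, above every other library and 2.94 times the DMSO mean.

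The group means of TM4SF1 fell in the order bortezomib with ISRIB, 1144 ± 32.9 CPM (SD, n = 4), bortezomib, 472 ± 36, ISRIB, 433.4 ± 43.8, nelfinavir, 390.1 ± 14.1, DMSO, 389.5 ± 14.9, and bortezomib with nelfinavir, 268 ± 13.2. Bortezomib and ISRIB overlapped in this order, as did nelfinavir and DMSO. The log2 difference of bortezomib with ISRIB from bortezomib was 1.28 (SE 0.076), that of bortezomib with nelfinavir from bortezomib was −0.82 (SE 0.0763), and that of bortezomib from DMSO was 0.28 (SE 0.0752). The last value was 0.17 without bortezomib replicate 4 and −0.22 with library totals as the scale, so its direction rests on the scaling. 

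TMEM50B (ENSG00000142188; GRCh37 chromosome 21, 34804792 to 34852281, minus strand) was the least abundant of the 4, with 4218 reads in all. Its replicates gave 20.57, 20.44, 24.63 and 23.53 CPM with DMSO, 24.47, 21.65, 23.3 and 18.74 CPM with ISRIB, and 19.95, 18.71, 20.89 and 16.88 CPM with nelfinavir. The bortezomib libraries gave 16.47, 17.45, 24.29 and 15.99 CPM, from 74 to 115 reads each. All 4 of these groups overlapped one another. Bortezomib with nelfinavir gave 35.51, 39.51, 44.4 and 39.22 CPM, and bortezomib with ISRIB gave 57.88, 62.41, 56.22 and 68.87 CPM. The combinations stood clear of the other groups and of each other, at 1.78 and 2.75 times the DMSO mean of 22.29 ± 2.12 CPM. Against bortezomib alone, 18.55 ± 3.87 CPM, the log2 difference was 1.72 (SE 0.137) with ISRIB added and 1.10 (SE 0.138) with nelfinavir added. Bortezomib against DMSO gave −0.26 (SE 0.139), and −0.47 without bortezomib replicate 3.

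TMEM50B overlaps IFNGR2, an interferon gamma receptor chain on the opposite strand. The last 500 bases of annotated TMEM50B transcripts share 113 bases with those of IFNGR2. Where in IFNGR2 these bases lie was not examined. No source used here states whether strand was used in counting, and without it reads from this overlap could not be assigned to either gene. IFNGR2 measured 28.6 ± 3.9 CPM with bortezomib, 27 ± 3.44 CPM with ISRIB added and 23.7 ± 6.76 CPM with nelfinavir added, against 40 ± 4.27 CPM with DMSO. Its level was thus not higher in the groups in which TMEM50B was.

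NUCB2 (ENSG00000070081; GRCh37 chromosome 11, 17229700 to 17371527, plus strand) had 26552 reads over the 24 libraries. Its replicates measured 135.5, 130, 140.9 and 134.5 CPM with DMSO, 135.1, 119, 115.4 and 136.5 CPM with ISRIB, and 97.31, 109.2, 104.8 and 118.6 CPM with bortezomib. These 3 groups were the lowest. With nelfinavir alone NUCB2 measured 236.6, 193.6, 201.9 and 206 CPM, above every DMSO library. With bortezomib and ISRIB it measured 230.6, 235.8, 240.9 and 242.2 CPM, and with bortezomib and nelfinavir 286.2, 288.4, 270.3 and 264.1 CPM. NUCB2 was the 1 gene of the 4 for which nelfinavir alone reached the range of a bortezomib combination, since the nelfinavir and bortezomib with ISRIB groups overlapped. The highest mean, 277.2 ± 11.9 CPM with bortezomib and nelfinavir, was 1.17 times that with bortezomib and ISRIB, 237.4 ± 5.26 CPM, without overlap. Against bortezomib alone, 107.5 ± 8.91 CPM, the log2 difference was 1.14 (SE 0.0829) with ISRIB added and 1.37 (SE 0.0829) with nelfinavir added, and bortezomib against DMSO gave −0.33 (SE 0.0823). The ends of some NUCB2 transcripts match BSCL2, HCG25, MAP3K2-DT and TMEM104 transcripts over 87 to 105 bases at 97.03% identity or more. Of these, TMEM104 had the most reads, 2218 in all.

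The RefSeq promoter table matched 2 of the 4 genes by symbol, TM4SF1 and NUCB2 and not DEFB1 or TMEM50B. These promoters are shown because factors of the UPR and the ATF4 pathway bind known short motifs. The sequences are the 250 bases before the annotated start, from RefSeq on GRCh38.p14, a later build than that of the counts, written 5′ to 3′ on the gene's own strand. They lie at chr3:149377650-149377899 (minus strand) and chr11:17276489-17276738 (plus strand, the first of 2 NUCB2 starts). Capitals mark the CCAAT box, the CCACG part of the ER stress response element and the ACGTG core of UPR and ATF-type sites, on either strand.
TM4SF1: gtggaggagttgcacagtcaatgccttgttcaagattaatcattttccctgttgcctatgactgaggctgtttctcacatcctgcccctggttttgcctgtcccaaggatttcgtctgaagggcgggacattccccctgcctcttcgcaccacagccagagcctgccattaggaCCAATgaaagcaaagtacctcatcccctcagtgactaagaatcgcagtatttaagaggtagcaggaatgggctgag
NUCB2: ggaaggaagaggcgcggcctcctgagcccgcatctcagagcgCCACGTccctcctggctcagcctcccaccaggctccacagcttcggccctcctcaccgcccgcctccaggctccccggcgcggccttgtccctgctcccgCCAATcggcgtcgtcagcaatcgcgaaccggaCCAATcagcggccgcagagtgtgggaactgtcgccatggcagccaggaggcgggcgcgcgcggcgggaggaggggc
TM4SF1 held 1 CCAAT, 76 bases before its start, in a stretch of 50.8% GC. NUCB2 held CCAAT at 108 and 76 bases before its start and CCACG at 208 bases. It also held ACGTG at 207 bases, on the other strand and overlapping the latter motif, in a stretch of 72.4% GC. Of the 35116 windows of 300 bases in the table, 34.6% held CCAAT on either strand, 38.1% held CCACG and 21.4% held ACGTG, so these matches are common ones. The full ER stress response element, a CCAAT followed after 9 bases by the other motif, was found in neither promoter on either strand and in 0.0769% of windows. The longer motif TGACGTG, which holds the ACGTG core, was likewise in neither promoter and in 1.97% of windows. The ATF4-type motif TGATGCAA was in neither promoter and in 0.866% of windows.

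DEFB1 (ENSG00000164825; GRCh37 chromosome 8, 6728114 to 6735458, minus strand) had 7657 reads in all. Its level was lowest with bortezomib, where its spread was the largest in relation to the mean, 31.1%. Its replicates measured 51.83, 46.08, 48.42 and 47.8 CPM with DMSO and 41.87, 51.04, 53.52 and 47.33 CPM with ISRIB, which overlapped. Nelfinavir alone gave 26.88, 32.14, 32.83 and 30.51 CPM, below every DMSO library. Bortezomib gave 25.02, 17.45, 28.94 and 14.48 CPM, from 67 to 137 reads each, and overlapped nelfinavir. Bortezomib with nelfinavir gave 86.66, 78.57, 101 and 89.9 CPM, and bortezomib with ISRIB gave 82.15, 85.02, 84.43 and 83.68 CPM. Both combinations lay above all other libraries and overlapped each other, with means of 89.03 ± 9.29 and 83.82 ± 1.24 CPM against 48.53 ± 2.41 CPM with DMSO. DEFB1 was thus lower with each of nelfinavir and bortezomib alone and higher with both together. Against bortezomib alone, 21.47 ± 6.67 CPM, the log2 difference was 1.97 (SE 0.14) with ISRIB added and 2.05 (SE 0.14) with nelfinavir added, and bortezomib against DMSO gave −1.18 (SE 0.139).

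Of the 8 comparisons, 4 use neither the bortezomib nor the bortezomib with ISRIB libraries as a compared group, and only these were tested. They are not fully independent of the choice of the genes, since all 24 libraries shared the same scaling and estimate of the spread. In ISRIB against DMSO, edgeR's quasi-likelihood test called 0 of the 4 genes and 0% of all tested genes. An unadjusted p below 0.05 was found for 703 of the 12685 genes, among them 1 of the 4, TM4SF1. That number is near the share of 0.05 that chance alone gives. DESeq2 called 19 genes, none of the 4, and gave no adjusted p for TMEM50B. The log2 differences were 0.15 (SE 0.0749, adjusted p = 0.895) for TM4SF1, 0.00 (SE 0.127) for DEFB1, −0.10 (SE 0.0807) for NUCB2 and −0.02 (SE 0.132) for TMEM50B. The TM4SF1 groups did not overlap, with ISRIB higher, as was so for 3.49% of all genes, and its value was 0.08 without ISRIB replicate 3.

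Nelfinavir against DMSO called 2 of the 4 genes, against 19.2% of all tested genes (10.4% higher and 8.84% lower). NUCB2 rose by 0.63 on the log2 scale (SE 0.0803, edgeR adjusted p = 2.76e-07), and DEFB1 fell by 0.67 (SE 0.13, adjusted p = 0.00026). TMEM50B differed by −0.22 (SE 0.133, adjusted p = 0.283) and TM4SF1 by 0.00 (SE 0.0749, adjusted p = 0.992), so neither passed.

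Bortezomib with nelfinavir against DMSO called all 4 genes, 3 higher and 1 lower, in a comparison in which 61.5% of tested genes were called (30.4% higher and 31.1% lower). NUCB2 rose by 1.04 (SE 0.081, edgeR adjusted p = 5.95e-13), DEFB1 by 0.88 (SE 0.127, adjusted p = 4.06e-07) and TMEM50B by 0.83 (SE 0.131, adjusted p = 1.65e-06). TM4SF1 fell by 0.54 (SE 0.0758, adjusted p = 2.19e-07). The hepatocyte markers moved in this comparison too, with 7 of 8 called lower and a median log2 change of −0.73, and their part in the TM4SF1 result was not tested. With library totals as the scale the 4 calls and directions remained, at 0.50, 0.34, 0.30 and −1.07 for NUCB2, DEFB1, TMEM50B and TM4SF1.

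Bortezomib with nelfinavir against nelfinavir gives the change with bortezomib where nelfinavir was present, and again all 4 genes were called, 3 higher and 1 lower, against 57.1% of tested genes (28.7% higher and 28.4% lower). DEFB1 rose by 1.54 (SE 0.131, edgeR adjusted p = 7.19e-12), TMEM50B by 1.05 (SE 0.133, adjusted p = 3.55e-08) and NUCB2 by 0.40 (SE 0.0798, adjusted p = 6.35e-05). TM4SF1 fell by 0.54 (SE 0.0758, adjusted p = 2.62e-07), and 8 of 8 hepatocyte markers were called lower, with a median of −0.87. With library totals as the scale NUCB2 gave −0.11 (adjusted p = 0.262), so its rise here depends on the scaling. DEFB1 and TMEM50B stayed higher on that scale, at 1.04 and 0.54, and TM4SF1 lower, at −1.05.

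**Figure D2:**
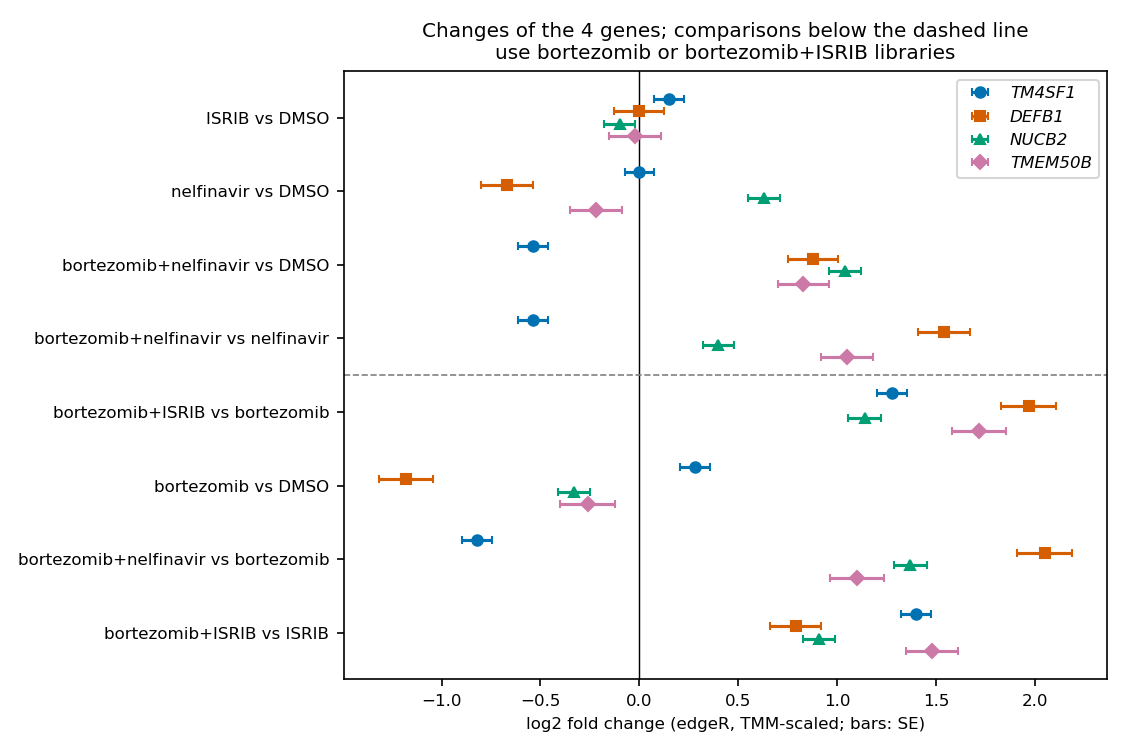
Log2 fold changes of the 4 genes with their standard errors in the 8 comparisons, with the 4 that were tested set apart from the 4 that share libraries with the choice of the genes. TM4SF1 lies below 0 in the comparisons with the bortezomib and nelfinavir group, in which the other 3 genes lie above 0, and the TM4SF1 value for bortezomib against DMSO and the NUCB2 value for bortezomib with nelfinavir against nelfinavir change sign with library totals.

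The remaining comparisons share libraries with the choice of the genes and are given as values. In bortezomib with nelfinavir against bortezomib, 3 of the 4 genes were higher without overlap between the groups, as were 12.4% of all genes, and 1 was lower, as were 9.11%. In bortezomib against DMSO, TM4SF1 was higher without overlap, as were 25.6% of all genes, DEFB1 and NUCB2 were lower, as were 24.4%, and TMEM50B overlapped. In bortezomib with ISRIB against ISRIB all 4 were higher without overlap, as were 24.7% of all genes. In the last comparison the log2 differences were 1.4 (SE 0.076) for TM4SF1, 1.48 (SE 0.13) for TMEM50B, 0.91 (SE 0.0812) for NUCB2 and 0.79 (SE 0.128) for DEFB1. With library totals these were 0.86, 0.93, 0.37 and 0.25.

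The nearest relatives of the 4 genes were measured alongside them. Of the L6 family, 3 relatives of TM4SF1 were tested and none was called in bortezomib with ISRIB against bortezomib, in which 12.2% of all tested genes were called. TM4SF5, the relative with the most reads, was 55.4 ± 1.6 CPM with bortezomib and ISRIB and 47.9 ± 5.62 CPM with bortezomib (log2 difference 0.21, edgeR adjusted p = 0.185). Unlike TM4SF1 it rose with nelfinavir alone, by 0.47 (adjusted p = 0.000652), and it was 49.1 ± 3.21 CPM with bortezomib and nelfinavir. TM4SF19 averaged 8.78 ± 2.62 CPM with bortezomib and ISRIB and 4.28 ± 1.68 CPM with bortezomib (adjusted p = 0.069), and no group mean of TM4SF4 was above 1.86 CPM.

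Among the nucleobindins and the CREC family, calcium-binding proteins of the secretory pathway, 6 relatives of NUCB2 were tested. Of these, 2 were called higher in bortezomib with ISRIB against bortezomib, as were 6.91% of all tested genes. NUCB1, the other nucleobindin, rose from 151 ± 22.1 to 212 ± 36.5 CPM (log2 change 0.49, edgeR adjusted p = 0.00198), and CALU, which encodes calumenin, rose by 0.60 (adjusted p = 1.49e-06). Both also rose in nelfinavir against DMSO, NUCB1 by 0.37 (adjusted p = 0.0134) and CALU by 0.63 (adjusted p = 2.62e-07), where 10.4% of all tested genes were called higher. NUCB1 differed from NUCB2 under bortezomib alone, where it rose by 1.35 over DMSO (adjusted p = 2.71e-12) and NUCB2 gave −0.33. RCN1, SDF4, RCN2 and RCN3 had log2 differences of 0.00, 0.07, 0.38 and −1.13 with ISRIB added to bortezomib, and none of them passed (adjusted p = 0.99, 0.639, 0.0814 and 0.413), and no group mean of RCN3 was above 2.44 CPM. TMEM50A, the other gene of the TMEM50 pair, was not called when ISRIB was added to bortezomib. It measured 62.5 ± 20.7 CPM with bortezomib and ISRIB and 54.2 ± 8.77 CPM with bortezomib (log2 difference 0.20, SE 0.235, adjusted p = 0.632).

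Lists of stress genes that hold none of the 4 were set beside them. The lists were drawn up with earlier results of these data known, so their counts and p-values serve as description. Of 20 ER chaperones and folding enzymes, 18 rose and 0 fell when ISRIB was added to bortezomib, with a median log2 change of 1.03, where 6.91% of all genes rose and 5.34% fell and the median over all genes was 0.01. HSPA5, which encodes the chaperone BiP, rose from 2130 ± 161 to 10000 ± 1040 CPM (log2 change 2.23, edgeR adjusted p = 4.13e-17), and its cofactor SDF2L1 rose by 1.87 (adjusted p = 8.46e-12). The smallest values were 0.14 for ERP29 and 0.13 for CANX, neither of which passed (adjusted p = 0.402 and 0.296). When nelfinavir was added to bortezomib, 19 of the 20 rose, with a median of 1.01, where 15.6% of all genes rose and 13.4% fell. These 2 comparisons share the bortezomib libraries.

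Of 12 genes of ER-associated degradation and UPR regulation, 7 rose and 3 fell with ISRIB added to bortezomib, with a median of 0.74. EDEM1, which directs glycoproteins to degradation, rose by 1.94 (SE 0.35, edgeR adjusted p = 0.000215) and HERPUD1, a component of the degradation complex, by 1.86 (adjusted p = 3.52e-08). The sensor gene ERN1 fell by 0.67 (adjusted p = 0.0203) and XBP1, the factor it activates, by 0.89 (adjusted p = 3.73e-07). Total XBP1 mRNA does not show how much of it was spliced. By RT-PCR, the authors reported a larger spliced share when ISRIB or nelfinavir was added to bortezomib.

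Of 19 ATF4 targets, 0 rose and 10 fell with ISRIB added to bortezomib, with a median of −0.42, and 14 rose and 1 fell with nelfinavir added. SESN2, a stress-induced regulator of mTORC1, fell by 1.10 with ISRIB added (edgeR adjusted p = 2.44e-07), as did PPP1R15A, which encodes the eIF2α phosphatase subunit GADD34, by 1.10 (adjusted p = 1.05e-08). The list's highest values were 0.19 for the amino acid transporter SLC7A5 and 0.06 for VLDLR, which did not pass (adjusted p = 0.318 and 0.952). In bortezomib with nelfinavir against nelfinavir, which shares no library with bortezomib with ISRIB against bortezomib, 18 of the 20 ER chaperones rose and 1 fell, with a median of 1.16, and 10 of the 19 ATF4 targets rose and 3 fell, with a median of 0.62, where 28.7% of all genes rose and 28.4% fell. In nelfinavir against DMSO all 19 ATF4 targets tested rose, with a median of 2.47, whereas 5 of the 20 ER chaperones rose and 1 fell. In that comparison NUCB2 rose, DEFB1 fell and the other 2 genes were not called.

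**Figure D3:**
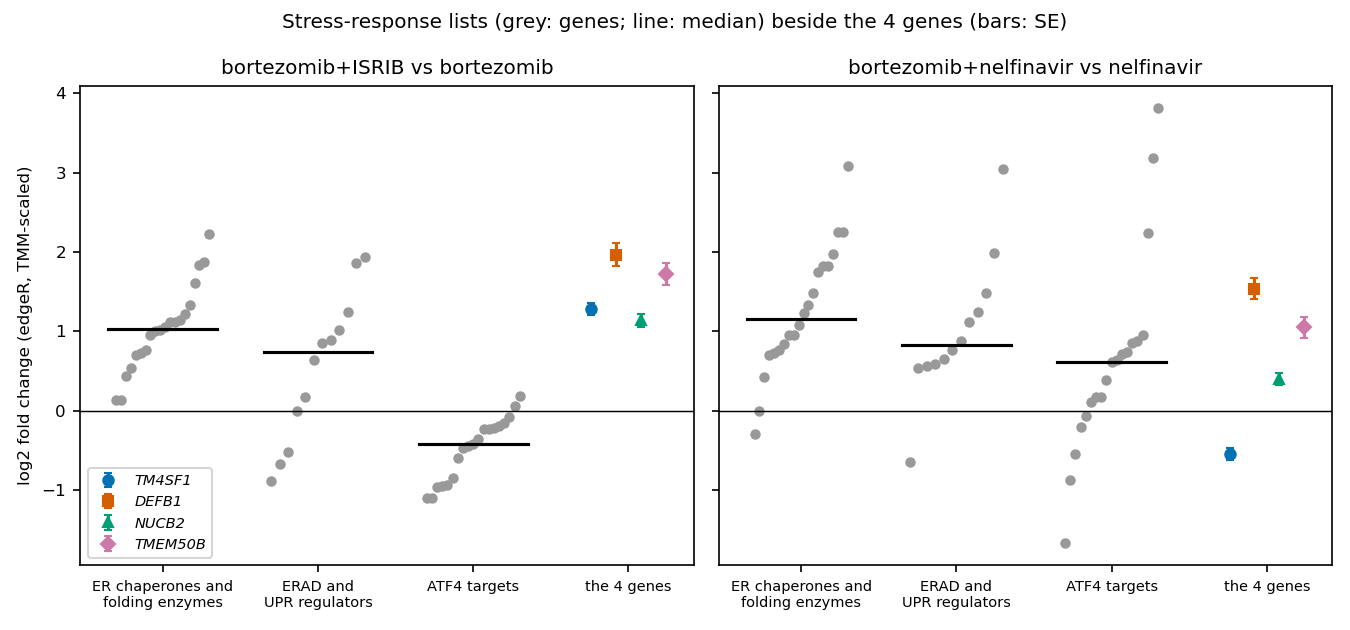
Log2 fold changes of the genes of 3 stress lists (gray points, with their median as a line) and of the 4 genes (colored points, with SE) in bortezomib with ISRIB against bortezomib, left, and bortezomib with nelfinavir against nelfinavir, right. The ER chaperones have medians of 1.03 and 1.16 and the ATF4 targets of −0.42 and 0.62, and TM4SF1 is the 1 gene of the 4 that lies above 0 on the left and below 0 on the right.

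The genes whose levels across the 24 libraries followed each of the 4 most closely were found by Pearson's r of log2 CPM. These r values are descriptions, since the 24 libraries share 6 treatments. For TM4SF1 they were C19orf77 (r = 0.898), CTTN, which encodes the actin-binding protein cortactin (r = 0.889), and the membrane skeleton gene EPB41L1 (r = 0.857). Their difference with ISRIB added to bortezomib was smaller than that of TM4SF1, for example 0.27 for C19orf77 and 0.48 for CTTN on the log2 scale. For DEFB1 they were CRELD2 (r = 0.912), an ER stress-induced gene, AC026202.3 (r = 0.886) and the kinase gene PIM2 (r = 0.877). The level of AC026202.3 was low, with group means of 0.48 to 4.56 CPM. For NUCB2 the closest genes were SSR1 (r = 0.942), a subunit of the translocon-associated complex, MGAT1 (r = 0.931), a Golgi glycosyltransferase, and C12orf23 (r = 0.92). For TMEM50B they were DHCR7 (r = 0.918), a cholesterol synthesis enzyme of the ER, MANF (r = 0.91), a secreted ER stress-induced factor, and the actin regulator DSTN (r = 0.91). CRELD2 and MANF are both on the ER chaperone list. After the group means were removed, r was between −0.107 and 0.538 for these 12 pairs, so most of the likeness lay between groups.

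**Figure D4:**
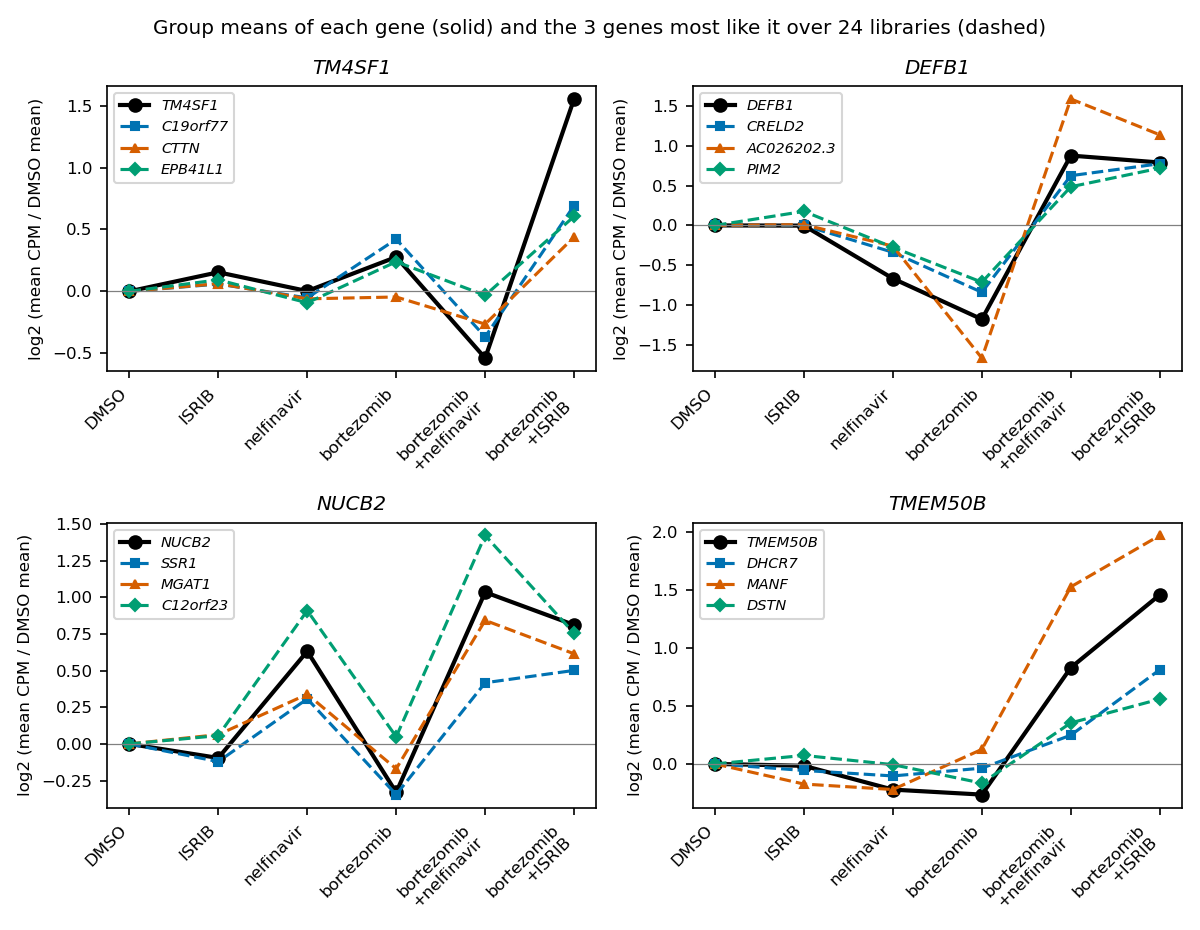
Log2 ratio of each group's mean CPM to the DMSO mean, for each of the 4 genes. Shown with each are the 3 genes with the highest Pearson's r over the 24 libraries. TM4SF1 and its 3 genes have their highest group in bortezomib with ISRIB, and the likeness lies mainly between groups, with r from −0.107 to 0.538 after group means were removed.

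Among themselves, DEFB1 and TMEM50B had the highest r over the 24 libraries, 0.84, followed by NUCB2 and TMEM50B with 0.69 and DEFB1 and NUCB2 with 0.66. TM4SF1 had r of 0.52 with TMEM50B, 0.16 with DEFB1 and 0.05 with NUCB2. With group means removed, DEFB1 and NUCB2 gave −0.68, the opposite sign from that between groups, and DEFB1 and TMEM50B gave 0.44.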

How the data were processed

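RNA from HepG2 cells was made into QuantSeq 3′ mRNA libraries and sequenced as 1 pool. The authors trimmed the reads with cutadapt 2.8, aligned them with STAR to the hg19 build and deposited raw counts per gene. They used the nf-core RNA-Seq pipeline with Ensembl gene models, and neither a strand setting nor the use of molecular identifiers is given in the sources used here. Labels gave 6 groups of 4 biological replicates.

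Counts of the 24 libraries were fitted together with edgeR 4.0.16 (R 4.3.3, quasi-likelihood test, TMM scaling, minimum count 5, minimum total 25), with Benjamini-Hochberg adjustment over 12685 genes and calls at an adjusted p below 0.05. Fold changes are log2 and SEs derive from the quasi-likelihood F. The fit was tested on simulated data. The members and lists were chosen with earlier results of these data known, so no p is given for the 4 members in 4 of 8 comparisons. The p-values of list genes in those comparisons are from genes chosen in the same way. Likeness used log2 CPM with a prior count of 2.

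Named genes were the 4 members, the genes of the 3 families, from each other list the 2 largest and 2 smallest changes with ISRIB added to bortezomib, the 3 most alike genes of each member, and the nearest measured genes on either side. Alternatives were DESeq2 1.42.0, other scalings and filters, fits of the compared groups alone, a replicate block and leaving out each library. Same-numbered replicates were not paired in the main fit, since pairing would have required deviations correlated above 0.1 in every same-numbered pair. Such a correlation was found in 10 of 60 same-numbered pairs, against 7 of 180 pairs of other numbers. The share was higher in same-numbered pairs, whether equal numbers mark a common batch was not tested, and a replicate block was fitted as an alternative. In the ISRIB group alone, the replicate numbers did not follow the order of the library numbers in the labels. The check and the block used the replicate numbers, so a batch that followed the library order would be misaligned for ISRIB in both. Replicate libraries of a group all differed by more than sampling noise. Gene positions came from GENCODE models on GRCh37, and 96.77% of genes had one.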

Additional observations from a re-analysis of the deposited data

Results flagged for a closer look

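Of 24 combinations of gene and group examined for a library far from the other 3, 2 had one, and chance gives about 1 in 20. Both were of TM4SF1, with 499 CPM in ISRIB replicate 3, against 411 to 413 CPM in the other ISRIB libraries, a gap of 0.979 of the group's range, and with 525 CPM in bortezomib replicate 4, against 450 to 462 CPM, a gap of 0.844 of the range.

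Some changes took opposite directions in 2 settings, with every treated library on the same side of the mean of its comparison group in each setting, and these differences were not tested. With bortezomib, TM4SF1 differed by 0.28 on the log2 scale without nelfinavir and by −0.54 with it. DEFB1 differed with bortezomib by −1.18 alone, by 1.54 in the presence of nelfinavir and by 0.79 in the presence of ISRIB. NUCB2 gave −0.33, 0.40 and 0.91 in the same 3 settings. With library totals as the scale, the values with bortezomib alone and in the presence of nelfinavir no longer differed in direction for TM4SF1, at −0.22 and −1.05, or for NUCB2, at −0.83 and −0.11. With nelfinavir, DEFB1 differed by −0.67 without bortezomib and by 2.05 with it, and TMEM50B by −0.22, where the nelfinavir and DMSO libraries overlapped, and 1.10.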

How the results depend on the processing

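The values for bortezomib with ISRIB against bortezomib kept their direction and size under every alternative, within 1.21–1.33 for TM4SF1, 1.82–2.14 for DEFB1, 1.08–1.19 for NUCB2 and 1.66–1.87 for TMEM50B. Library totals as the scale gave −0.11 (adjusted p = 0.262) for NUCB2 in bortezomib with nelfinavir against nelfinavir. For bortezomib against DMSO they gave −0.22, −1.68, −0.83 and −0.76 for TM4SF1, DEFB1, NUCB2 and TMEM50B, and for bortezomib with ISRIB against ISRIB 0.86, 0.25, 0.37 and 0.93, where the upper quartile gave 1.31 for TM4SF1. The upper quartile moved the median gene by −0.126 in bortezomib with nelfinavir against DMSO. Library totals also moved the higher calls, as a share of all calls, from 49.5% to 22.5% in bortezomib with nelfinavir against DMSO, from 50.3% to 19.6% against nelfinavir, from 51.6% to 19.2% in bortezomib against DMSO, from 53.3% to 19.3% in bortezomib with ISRIB against ISRIB and from 56.4% to 40.5% against bortezomib.

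Values near 0 changed sign without becoming calls. For ISRIB against DMSO, DEFB1 gave 0.01 with DESeq2's size factors and with DESeq2. For nelfinavir against DMSO, TM4SF1 gave −0.01 with DESeq2's size factors, with no filter, with the compared groups alone and with DESeq2, and −0.02 with the upper quartile and with library totals. Leaving out 1 library at a time gave −0.05 to 0.06 for DEFB1 and −0.07 to 0.05 for TMEM50B in ISRIB against DMSO, and −0.02 to 0.02 for TM4SF1 in nelfinavir against DMSO. In bortezomib against DMSO it gave 0.17 to 0.28 for TM4SF1, −1.41 to −1.09 for DEFB1, −0.44 to −0.31 for NUCB2 and −0.47 to −0.22 for TMEM50B, with the extremes without bortezomib replicate 4 (TM4SF1) and replicate 3 (DEFB1 and TMEM50B). In bortezomib with nelfinavir against bortezomib it gave −0.83 to −0.72 for TM4SF1, 1.95 to 2.27 for DEFB1 and 1.06 to 1.29 for TMEM50B.

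The number of genes called moved by over 1.5 times in ISRIB against DMSO, from 0 to 39 with no filter, 80 with the compared groups alone and 19 with DESeq2. With the compared groups alone it went from 2441 to 3873 in nelfinavir against DMSO, from 1553 to 867 in bortezomib with ISRIB against bortezomib, and from 3669 to 2246 in bortezomib with nelfinavir against bortezomib. The cause of these changes was not tested.

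The fit with the replicate number as a block changed no call of the 4 genes. With it NUCB2 rose by 0.41 (adjusted p = 6.37e-05) in bortezomib with nelfinavir against nelfinavir, and 2566 genes were called in nelfinavir against DMSO. Over all libraries, 14 of 24 were most like a library of the same replicate number, which for ISRIB did not follow the order of the library numbers. The depth limits TMEM50B and DEFB1 most, with 74 to 115 and 67 to 137 reads in the bortezomib libraries.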

Other observations

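The nearest measured genes on either side of the 4 were examined in bortezomib with ISRIB against bortezomib. Distances are between the outermost annotated bounds of the genes, and not from the promoter starts shown above. Beside NUCB2, PIK3C2A, a lipid kinase gene that lies 167 bases away, rose by 0.35 on the log2 scale (edgeR adjusted p = 0.029) and by 0.61 with nelfinavir added to bortezomib (adjusted p = 5.7e-05), and NCR3LG1 gave 0.00 (adjusted p = 0.988). Beside DEFB1, AGPAT5 gave 0.03 (adjusted p = 0.904) and MFHAS1 0.02 (adjusted p = 0.952), although both rose with nelfinavir added, by 0.49 (adjusted p = 0.0014) and 1.13 (adjusted p = 3.43e-09). Beside TMEM50B, IFNAR1 gave 0.19 (adjusted p = 0.323) and DNAJC28 had 17 reads in the 4 libraries with ISRIB and 5 without it. Beside TM4SF1, the ceruloplasmin gene CP gave 0.82 (adjusted p = 0.233). TM4SF1-AS1, an antisense gene 86 bases from TM4SF1, had 13 reads in the 4 bortezomib with ISRIB libraries and 0 in the 4 bortezomib libraries, against 12 with DMSO and 7 with bortezomib and nelfinavir. These reads are few beside those of TM4SF1.

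LYZ, which encodes lysozyme, a secreted antimicrobial protein often used as a myeloid marker, measured 66.1 to 434 CPM over the 24 libraries, while PTPRC had no counts and CD14 reached at most 2.32 CPM.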
